A study of Mus musculus with 12 samples.

Results

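The adenosine receptor family of the mouse holds 4 genes, Adora1, Adora2a, Adora2b and Adora3. All 4 were found by symbol, through their Ensembl mouse identifiers, among the 27866 genes counted in the ACSA-2 libraries and the 30359 genes counted in the CD11b libraries. The libraries came from male C57Bl6/J mice injected on both sides, at 2 months of age, into the CA1 field of the hippocampus with an adeno-associated vector (AAV) under the astrocyte promoter GfaABC1D. The AAV-A2A vector carried the murine Adora2a gene and the AAV-GFP control vector carried a green fluorescent protein. At 4 months of age, 2 months after injection, both hippocampi were dissociated, myelin was removed, and cells were taken on beads against ACSA-2, an astrocyte surface antigen, and then, from the unlabelled cells, on beads against CD11b, a surface protein of microglia and other myeloid cells. RNA was sequenced from 3 AAV-GFP controls and 3 AAV-A2A animals in each fraction, 12 libraries in all, named below by vector and the number in their label. The ACSA-2 labels carry the number of the library name, whereas the CD11b labels carry another number beside it. Whether libraries of the 2 fractions share animals is therefore not known, and none could be matched by animal. Fraction and set of libraries cannot be told apart. Both vectors were of serotype AAV2/9 and also held elements named Bglob and WPRE. Bead sorting enriched whole dissociated hippocampus rather than injected cells only, and in such bulk libraries fewer cells of a type and less RNA per cell cannot be told apart.

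Adenosine is a breakdown product of ATP that accumulates outside cells when tissue is active, injured or short of energy. Its receptors are G protein-coupled: A1 (Adora1) and A3 (Adora3) couple mainly to Gi proteins and lower cyclic AMP, whereas A2A (Adora2a) and A2B (Adora2b) couple mainly to Gs proteins and raise it. A1 is the high-affinity receptor best known for damping synaptic release, A2A is best known from striatal neurons, A2B needs higher adenosine levels to respond, and A3 is a receptor of myeloid and mast cells in rodents.

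The 4 genes lie on 4 chromosomes. In GRCm38 with the GENCODE M21 annotation, Adora1 (ENSMUSG00000042429) lies on the minus strand of chromosome 1 from 134199223 to 134235431, Adora2a (ENSMUSG00000020178) on the plus strand of chromosome 10 from 75316877 to 75334784, Adora2b (ENSMUSG00000018500) on the plus strand of chromosome 11 from 62248984 to 62266453, and Adora3 (ENSMUSG00000000562) on the plus strand of chromosome 3 from 105870858 to 105908926. A stretch of 1162 of the 5785 exon bases of Adora1 is shared with Mybph on the opposite strand, and 779 of the 3729 exon bases of Adora3 are shared with Tmigd3 on the same strand. The sources used here do not give the strand setting of the counting, so values of Adora1 carry that uncertainty. Reads within the bases that Adora3 shares on the same strand are ambiguous whatever the setting, and only unambiguous reads were counted. Tmigd3 itself had 1 to 25 counts in each CD11b library, against 281 to 2341 for Adora3.

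The start of the Adora2a reading frame is shown because the vector carried a copy of this murine gene: a read from such a sequence counts as Adora2a whether it came from the vector or from the chromosome. These are the first 60 of 1230 coding bases of transcript ENSMUST00000105420 (GENCODE M21, GRCm38, chr10:75326029-75326088, plus strand), with the start codon in capitals.
Adora2a: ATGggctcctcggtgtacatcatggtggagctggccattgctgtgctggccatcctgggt

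The promoters of Adora2b and Adora3 are shown because these genes had the highest level per length of the family in the ACSA-2 controls and in the CD11b libraries richest in microglial markers, respectively. Each window runs from 250 bases before to 50 bases after the RefSeq start (GRCm38.p6, read along the gene's strand), at chr11:62248734-62249033 for Adora2b and chr3:105904171-105904470 for Adora3, both on the plus strand. The Adora3 window lies inside the GENCODE gene, downstream of its annotated start at 105870858. Capitals mark the GC box GGGCGG, on either strand, in Adora2b and the PU.1 core GAGGAA, on either strand, in Adora3.
Adora2b: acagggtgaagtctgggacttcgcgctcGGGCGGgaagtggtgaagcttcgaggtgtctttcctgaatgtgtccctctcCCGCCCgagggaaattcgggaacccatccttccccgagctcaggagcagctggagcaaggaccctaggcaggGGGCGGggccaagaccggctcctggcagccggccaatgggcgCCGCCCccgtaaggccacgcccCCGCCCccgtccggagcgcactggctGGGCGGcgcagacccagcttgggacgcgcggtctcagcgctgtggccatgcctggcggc
Adora3: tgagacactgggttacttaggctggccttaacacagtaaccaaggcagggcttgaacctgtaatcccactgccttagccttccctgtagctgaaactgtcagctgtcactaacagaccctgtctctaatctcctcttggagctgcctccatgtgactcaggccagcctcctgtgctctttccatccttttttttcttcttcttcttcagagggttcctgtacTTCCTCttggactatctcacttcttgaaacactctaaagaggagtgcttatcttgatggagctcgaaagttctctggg
The Adora2b window was 70% G or C and held 6 GC boxes, a motif found in 35.7% of 32851 mouse promoter windows of this length. The Adora3 window was 48.3% G or C, held no GC box and had 1 PU.1 core, found in 28.3% of those windows. Adora1 has 2 annotated starts, both 66.0% G or C: the upstream window held 3 GC boxes and the downstream window held none. The full cyclic AMP response element TGACGTCA, found in 1.79% of windows, and its shorter core TGACG, which lies within it and was found in 20.8%, were in none of these 4 windows.

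Sequencing gave 33937067 to 53206974 counts on genes per library. The astrocyte list (10 markers) summed to 24807 to 35831 CPM (counts scaled to a common library total of 1000000) in the ACSA-2 libraries and to 250 to 620 CPM in the CD11b libraries. The microglia list (10 markers) summed to 373 to 720 CPM and to 11224 to 65508 CPM, respectively. The labels and the markers thus went together in both fractions, but the CD11b libraries were uneven. In GFP-2328, GFP-2329 and A2A-2347 the choroid plexus transcript Ttr alone made up 8.05%, 6.41% and 2.80% of all counts, against 0.000493% to 0.00726% in GFP-2331, A2A-2343 and A2A-2344. Because 2 of these 3 Ttr-rich libraries were AAV-GFP controls, CD11b values are given below with the library they belong to.

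**Figure D1:**
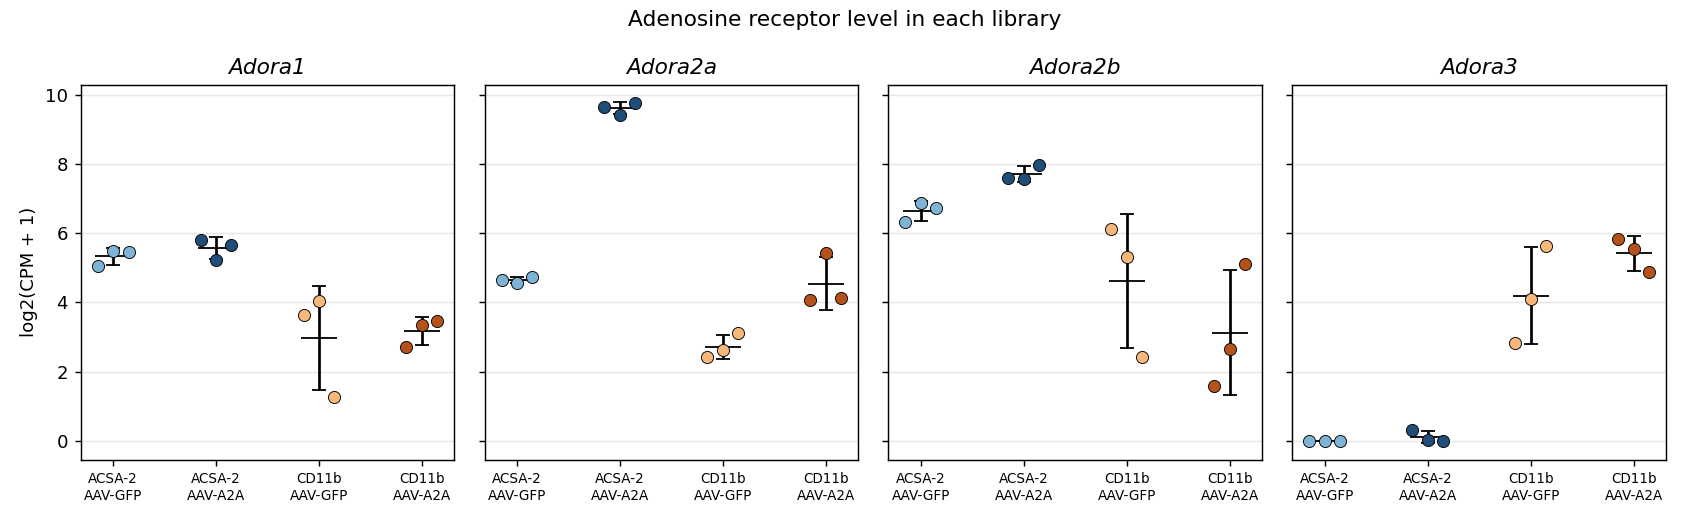
Level of each receptor gene, as log2(CPM + 1), in the 12 libraries by fraction and vector; points are libraries, the horizontal bar is the mean and the error bar the SD of 3 libraries. Adora2a of the 3 ACSA-2 AAV-A2A libraries stands above all other groups, and Adora3 sits at or near 0 in the 6 ACSA-2 libraries.

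The comparison of the vectors in ACSA-2 cells asked how the receptor family differed once astrocytes carried added Adora2a. Adora2a had 23.8, 22.7 and 25.7 CPM in controls GFP-303, GFP-306 and GFP-307. It had 805, 681 and 867 CPM in A2A-309, A2A-310 and A2A-313. Every AAV-A2A animal was far above every control, as the labels of all 6 libraries have it. The means were 24.1 ± 1.51 CPM and 784 ± 94.7 CPM (SD, n = 3 each), a ratio of 32.6. The log2 fold change was 5.02 (SE 0.21, edgeR quasi-likelihood adjusted p = 1.55e-05).

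Adora2b, the second Gs-coupled receptor, had 79.0, 115 and 104 CPM in the 3 controls. It had 193, 187 and 249 CPM in the 3 AAV-A2A animals. The groups did not overlap, and the means of 99.5 ± 18.6 and 210 ± 34.6 CPM (SD, n = 3 each) differed by a factor of 2.11. The log2 fold change was 1.08 (SE 0.22, edgeR adjusted p = 0.0299). The choroid plexus list, which includes Ttr, summed to 549 to 640 CPM in controls and 657 to 1065 CPM in AAV-A2A animals, also without overlap, and its part in the Adora2b difference was not tested. The Adora2b call rested on all 6 libraries: with any 1 of them left out the log2 fold change was 0.848 to 1.20 and the adjusted p rose to between 0.0503 and 0.122. With all 6 libraries kept, 6 of 7 alternative fits passed, among them DESeq2 (adjusted p = 0.000363) and limma-voom (adjusted p = 0.0238). The exception was a fit of all 12 libraries together, which shares its estimate of spread with the CD11b fraction. There the log2 fold change was 1.05 with an edgeR adjusted p of 0.887.

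Adora1, the Gi-coupled A1 receptor, had 32.3, 43.7 and 42.5 CPM in controls and 55.2, 36.0 and 49.7 CPM in AAV-A2A animals. These ranges overlapped, and the log2 fold change of 0.24 (SE 0.24) did not pass the test (edgeR adjusted p = 0.780). Adora3 had 0 counts in all 3 controls, and 8, 1 and 0 counts in A2A-309, A2A-310 and A2A-313. It was too low to be tested in these 6 libraries, where 3 counts correspond to 0.0610 to 0.0884 CPM.

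Of the 3 receptors tested, 2 rose and none fell. They were Adora2a, the gene the AAV-A2A vector carried, and Adora2b. The counts do not separate vector from chromosomal Adora2a, whose rise was set by the design. Among the receptors the vector did not carry, Adora2b was called and Adora1 was not. Across all 16451 genes tested, 3.36% were called, 0.176% were called higher, and 19.3% had groups that did not overlap. A call needed an edgeR adjusted p under 0.05 and a log2 fold change beyond 0.32 in either direction. The calls of the fraction were mostly lower levels: 29 genes were higher and 524 lower, against 271 and 992 with DESeq2.

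Levels of different genes can be compared only per length, as CPM divided by own exon length in kilobases (RPKM). In the ACSA-2 controls Adora2b led with 53.9 ± 10.1 RPKM, and Adora1 (8.54 ± 1.35 RPKM) and Adora2a (7.86 ± 0.49 RPKM; SD, n = 3 each) lay side by side with overlapping ranges. Adora2b thus took 74.3% to 78.7% of the family's summed RPKM in each control. In AAV-A2A animals Adora2a rose to 256 ± 30.9 RPKM and took 66.0% to 69.3%, while Adora2b, at 114 ± 18.8 RPKM, took 27.5% to 31.5%. The ratio of Adora2a to Adora1 RPKM was 0.784 to 1.11 in controls and 22.0 to 28.5 in AAV-A2A animals. These values use the 3062 exon bases of the chromosomal Adora2a. The length of the vector copy is not given in the sources used here, and the coding part of the gene has 1230 bases. Shares and ratios of AAV-A2A libraries therefore hold only for the chromosomal length.

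**Figure D2:**
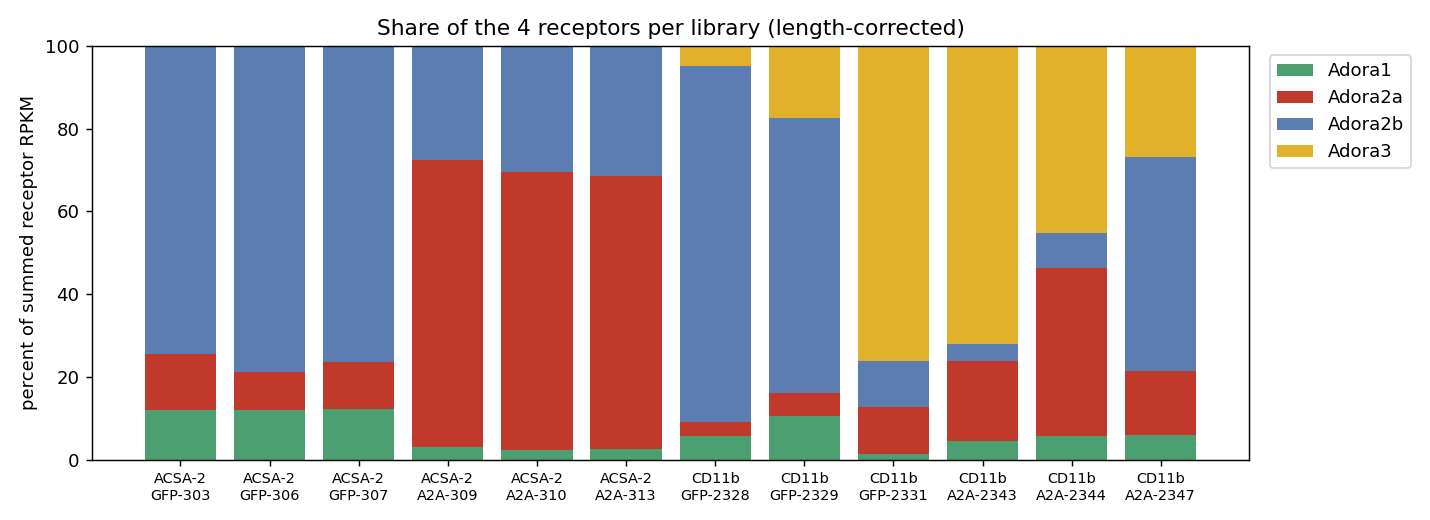
Percent of the summed RPKM of the 4 receptors taken by each gene, one bar per library. Adora2a is divided by the exon length of the chromosomal gene in all libraries, because the length of the vector copy is not given. Adora2b fills most of each ACSA-2 control bar, Adora2a takes 66.0% to 69.3% in ACSA-2 AAV-A2A libraries, and the CD11b bars differ from library to library, with Adora3 at 4.86% to 76.2%.

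In CD11b cells the vector comparison asked whether receptors of microglia-enriched cells differed when only astrocytes were targeted by the promoter. The edgeR test called 0 of 16949 genes (0%), although 2704 genes had an unadjusted p under 0.05. DESeq2 called 455. Groups did not overlap for 23.5% of genes.

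Adora2a had 4.41, 5.18 and 7.59 CPM in controls GFP-2328, GFP-2329 and GFP-2331. It had 15.6, 42.4 and 16.6 CPM in A2A-2343, A2A-2344 and A2A-2347. All 3 AAV-A2A animals lay above all 3 controls, and A2A-2344 was well above the other 2. The means were 5.73 ± 1.66 and 24.9 ± 15.2 CPM (SD, n = 3 each), a ratio of 4.34. The log2 fold change of 2.20 (SE 0.54) missed the edgeR threshold (adjusted p = 0.280), whereas DESeq2 gave 2.21 with an adjusted p of 0.0247. With the Ttr-rich libraries marked by a term of their own, a fit chosen after the data were seen, the log2 fold change was 1.91 (edgeR adjusted p = 0.138).

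Astrocyte transcripts were present in the CD11b libraries, so Adora2a was set beside them. The astrocyte list summed to 250, 501 and 434 CPM in A2A-2343, A2A-2344 and A2A-2347, and all 10 markers had counts. Its mean in AAV-A2A animals was 1.31% of that in the ACSA-2 AAV-A2A libraries, and that of Adora2a was 3.17%. In controls the same shares were 1.87% and 23.8%. Per 1000 CPM of astrocyte markers, Adora2a stood at 24.2 to 30.6 CPM in the ACSA-2 AAV-A2A libraries and at 38.3 to 84.5 CPM in the CD11b ones. The mean of the former multiplied by the astrocyte markers of each CD11b library gives 6.58, 13.2 and 11.4 CPM, and with the CD11b control mean of 5.73 CPM added it gives 12.3, 18.9 and 17.2 CPM, against the measured 15.6, 42.4 and 16.6 CPM. A2A-2344 was highest in each. The part of astrocyte RNA in the Adora2a difference was not tested. The lists of neurons, endothelial cells, ependymal cells and erythrocytes were each lower in the CD11b AAV-A2A libraries without overlap, for neurons 9.23 to 17.3 CPM against 30.1 to 246 CPM.

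Adora3, the A3 receptor, had 6.16, 16.0 and 48.7 CPM in GFP-2328, GFP-2329 and GFP-2331, and 56.1, 45.7 and 28.1 CPM in A2A-2343, A2A-2344 and A2A-2347. The groups overlapped, and the log2 fold change of 0.94 (SE 0.79) did not pass the edgeR test (adjusted p = 0.585). It was 2.18 without GFP-2331 and 0.471 without GFP-2328, again without passing. The lowest 3 values were those of the Ttr-rich libraries (6.16 to 28.1 CPM), and the others had 45.7 to 56.1 CPM. The microglia list followed the same split, with 11224, 22417 and 27043 CPM in GFP-2328, GFP-2329 and A2A-2347 and 53375 to 65508 CPM in the others. Its part in the Adora3 values was not tested. The 7 mast cell markers, a second possible source of Adora3 transcripts, summed to 10.2, 11.8 and 5.32 CPM in GFP-2328, GFP-2329 and GFP-2331. They summed to 2.40, 1.55 and 14.5 CPM in A2A-2343, A2A-2344 and A2A-2347, so the Ttr-rich libraries were the high ones. The part of mast cell RNA in the Adora3 values was not tested either.

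Adora2b followed the reverse split. It had 68.3, 38.4 and 4.39 CPM in GFP-2328, GFP-2329 and GFP-2331, and 2.01, 5.32 and 33.8 CPM in A2A-2343, A2A-2344 and A2A-2347. The Ttr-rich libraries had 33.8 to 68.3 CPM and the others 2.01 to 5.32 CPM, irrespective of the vector. The log2 fold change of -1.31 (SE 1.18, edgeR adjusted p = 0.608) became -0.42 (adjusted p = 0.599) with the Ttr term. It was -3.12 without A2A-2347 and -0.556 without GFP-2328, and passed in neither. The part of choroid plexus RNA in these values was not tested.

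Adora1 was low throughout, with 11.3, 15.3 and 1.41 CPM in the controls and 5.53, 9.17 and 9.98 CPM in the AAV-A2A animals. The log2 fold change was -0.02 (SE 0.76, edgeR adjusted p = 0.991), and its sign depended on the fit: it was 1.00 with the Ttr term (adjusted p = 0.460) and 0.44 with limma-voom (adjusted p = 0.790). GFP-2331, the only control that was not Ttr-rich, had the lowest Adora1 value.

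**Figure D3:**
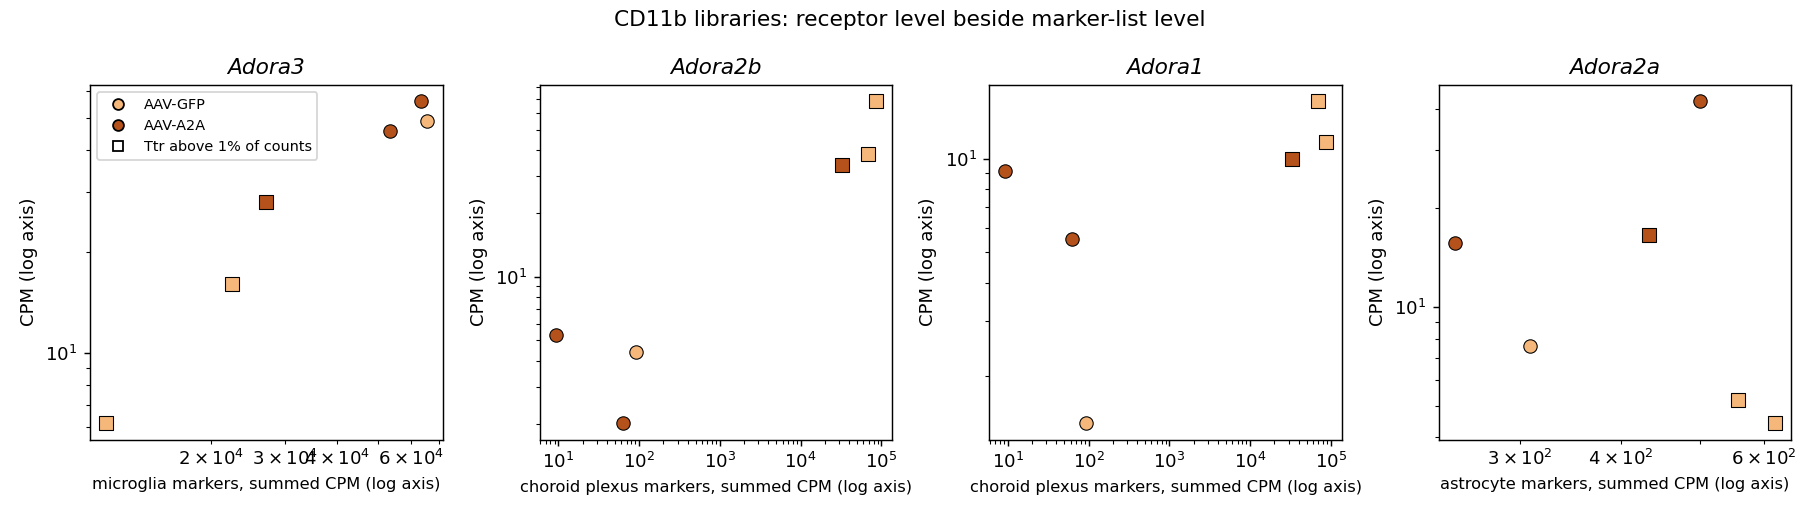
CPM of each receptor (y, log axis) against the summed CPM of a marker list (x, log axis) in the 6 CD11b libraries; squares are the libraries with Ttr above 1% of counts. Adora3 is at 6.16 to 28.1 CPM in the squares and at 45.7 to 56.1 CPM in the circles, and Adora2b shows the reverse order. Adora2a separates by vector instead, as did 23.5% of all genes tested, and was not called (edgeR adjusted p = 0.280).

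The difference between the 2 vector effects was tested as an interaction over 18602 genes, of which 0.403% were called. For Adora2a the log2 fold change was larger in ACSA-2 than in CD11b cells by 2.75 (SE 0.60), with an unadjusted edgeR p of 0.000675 and an adjusted p of 0.0621. DESeq2 (2.82, adjusted p = 0.00143) passed the threshold, as did edgeR where genes under 10 counts in any library were left out (2.82, adjusted p = 0.0360), and edgeR without GFP-2331 (2.35, adjusted p = 0.0349). None of the 4 receptors was called by the edgeR test: the difference was 2.39 for Adora2b (SE 1.23, adjusted p = 0.312) and 0.20 for Adora1 (SE 0.79, adjusted p = 0.920). It was 3.78 for Adora3 (SE 2.56, adjusted p = 0.452), whose ACSA-2 counts were at or near 0.

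**Figure D4:**
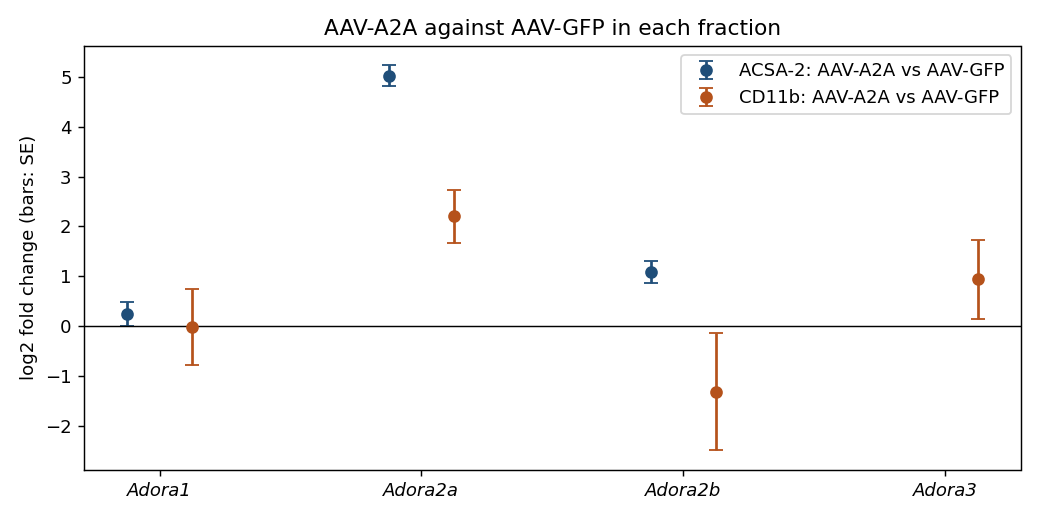
log2 fold change of AAV-A2A against AAV-GFP in ACSA-2 (blue) and CD11b (orange) libraries for each receptor, with bars of 1 SE from edgeR. Adora2a lies at 5.02 and 2.20, and the CD11b bars of the other receptors are wide; Adora3 was not tested in ACSA-2.

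In control animals Adora1, Adora2a and Adora2b had counts in every library of both fractions, and Adora3 only in the CD11b libraries. Of the CD11b controls, GFP-2328 and GFP-2329 were Ttr-rich. All 4 genes had groups that did not overlap, as did 50.7% of the 16980 genes tested, and 25.8% of genes were called. Adora3 was higher in the CD11b fraction: its 6.16 to 48.7 CPM stood against 0 counts in each ACSA-2 control. It passed the filter on low counts only through the CD11b controls, so its test adds no support and is not given. Taking 3 counts per ACSA-2 library as the limit, the CD11b mean of 23.6 CPM was at least 294-fold higher, and its lowest library at least 76.6-fold higher.

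Adora2a was higher in the ACSA-2 controls, at 24.1 ± 1.51 CPM against 5.73 ± 1.66 CPM (SD, n = 3 each), with a log2 fold change of 2.14 (SE 0.39, edgeR adjusted p = 0.0107). Without GFP-2329 the adjusted p was 0.0503. Adora1, at 39.5 ± 6.25 CPM against 9.36 ± 7.17 CPM, gave 2.27 (SE 0.72) and missed the threshold (adjusted p = 0.0575), although the adjusted p was 0.00851 with DESeq2 and 0.00439 in edgeR without GFP-2331. Adora2b, at 99.5 ± 18.6 CPM against 37.1 ± 32.0 CPM, gave 1.64 (SE 0.76, adjusted p = 0.157). Without GFP-2331 its log2 fold change was 1.12 with an adjusted p of 0.0243, and the 2 controls then left in the CD11b group were the Ttr-rich ones.

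Within the CD11b libraries the order of the receptors per length changed with the library. Adora2b took 86.1% and 66.6% of summed receptor RPKM in GFP-2328 and GFP-2329 and 51.7% in A2A-2347. Adora3 took 76.2% in GFP-2331, 72.0% in A2A-2343 and 45.3% in A2A-2344. In A2A-2344 Adora2a took a further 40.5%, the largest share it had in this fraction, again by the chromosomal exon length.

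Genes whose levels followed each receptor over the 12 libraries were sought among 11637 genes with a mean of at least 5 CPM, as a description in which the points share fractions and vectors. Adora3 was most like Myadml2, Traf3ip3 and Pdcd1 (Pearson r of log2 CPM 0.997, 0.995 and 0.993), Adora2b had Ephx2 and Mboat2 among its closest (0.985 and 0.984), and Adora1 was most like Ak4, Prkd1 and Fgf12 (0.982, 0.981 and 0.978). Adora2a had looser companions in Cep85l, Fam172a and Lrrc4 (0.867, 0.865 and 0.860). Among the receptors themselves, r was 0.860 for Adora1 with Adora2b and -0.883 for Adora1 with Adora3.

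The genes that act with these receptors were read from 6 lists. In ACSA-2 cells all 9 membrane adenylyl cyclases, the enzymes that make cyclic AMP, had negative log2 fold changes, with a median of -1.29 against 0.02 over all genes tested, of which 48.4% were negative and 3.19% were called lower. Of the 9, 3 fell: Adcy2 from 2031 ± 447 to 596 ± 112 CPM (log2 fold change -1.76, SE 0.24, edgeR adjusted p = 0.00449), Adcy9 from 33.4 ± 10.4 to 9.64 ± 2.44 CPM (-1.80, SE 0.33, adjusted p = 0.0169) and Adcy6 (-1.57, adjusted p = 0.0415). Under limma-voom, and without GFP-303, GFP-306, GFP-307 or A2A-309, 1 of the 9 was positive. With 1 library left out the adjusted p was 0.0695 (GFP-303), 0.0774 (GFP-307), 0.0727 (A2A-310) or 0.0663 (A2A-313) for Adcy9, 0.118 to 0.177 for Adcy6 whichever library other than GFP-303 was left out, and at most 0.0292 for Adcy2. In the 12-library fit the adjusted p was 0.822 for Adcy2 and 0.431 for Adcy6, and Adcy6 also missed the threshold in limma-voom (0.0770) and with library totals only (0.0673). The marker list of oligodendrocyte precursors, summing to 358, 567 and 547 CPM in controls and 315, 167 and 309 CPM in AAV-A2A animals, was lower without overlap, as were those of striatal projection neurons (467 to 481 against 247 to 372 CPM) and of monocytes and neutrophils (2.38 to 3.78 against 0.177 to 0.528 CPM). Whether the cells these lists name were present, and their part in the cyclase values, were not tested. None of 8 G protein alpha subunits was called (median 0.12), including Gnai2, one of the Gi subunits, at 374 ± 39.2 and 522 ± 110 CPM (adjusted p = 0.318).

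Of 12 cyclic AMP response genes tested, 1 fell and none rose (median -0.13). This was Per1, a clock gene, from 32.7 ± 7.06 to 9.74 ± 3.08 CPM (log2 fold change -1.78, SE 0.30, edgeR adjusted p = 0.0110), with an adjusted p of 0.0653 without GFP-306. Sik1 of the same list had a larger change and was not called. It had 74.6 ± 4.91 and 15.1 ± 14.1 CPM (log2 fold change -2.38, SE 0.59, edgeR adjusted p = 0.0682). None of 12 genes of adenosine supply and clearance passed the test (median 0.22), including Adk, the kinase that removes adenosine inside cells, at 622 ± 59.6 and 726 ± 160 CPM (adjusted p = 0.782). None of 7 receptor kinases and arrestins was called (median 0.04), nor any of 6 genes whose products bind the A2A receptor (median -0.18). Among them were Grk3, at 22.8 ± 2.04 and 55.5 ± 33.5 CPM (adjusted p = 0.126, or 0.0185 with DESeq2), and Cyth2 (adjusted p = 0.897).

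In CD11b cells no gene of the 6 lists was called by edgeR. Their median log2 fold changes ran from -0.74 for the cyclic AMP response genes to 1.15 for the receptor kinases and arrestins, against -0.05 over all genes tested. Between the control fractions the supply genes divided: Entpd1, the ectonucleotidase that hydrolyses ATP and ADP, had 406 ± 332 CPM in CD11b cells and 15.4 ± 3.25 CPM in ACSA-2 cells (edgeR adjusted p = 0.00786), and its relative Entpd2 had 1.81 ± 0.72 and 135 ± 15.4 CPM (adjusted p = 0.000264). Of 13 supply and clearance genes tested between fractions, 3 were higher in ACSA-2 and 3 in CD11b cells, where 25.8% of all genes were called in either direction. Of 9 cyclases, 3 were higher in ACSA-2 cells, namely Adcy2, at 2031 against 11.6 CPM (adjusted p = 0.0170), Adcy8 (log2 fold change 2.68, adjusted p = 0.0340) and Adcy9 (1.68, adjusted p = 0.0217), and 1, Adcy7, was higher in CD11b cells, at 182 against 8.50 CPM (adjusted p = 0.0254). With 1 of GFP-303, GFP-306, GFP-307 and GFP-2329 left out the adjusted p of Adcy2 was 0.0533 to 0.0618, and with GFP-303, GFP-307 or GFP-2329 left out that of Adcy7 was 0.0554 to 0.0959. For Adcy8 it was 0.0517 to 0.112 without any 1 of GFP-303, GFP-306, GFP-307, GFP-2328 and GFP-2329, and for Adcy9 it was 0.0607 to 0.0863 without GFP-303, GFP-307, GFP-2328 or GFP-2329.

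**Figure D5:**
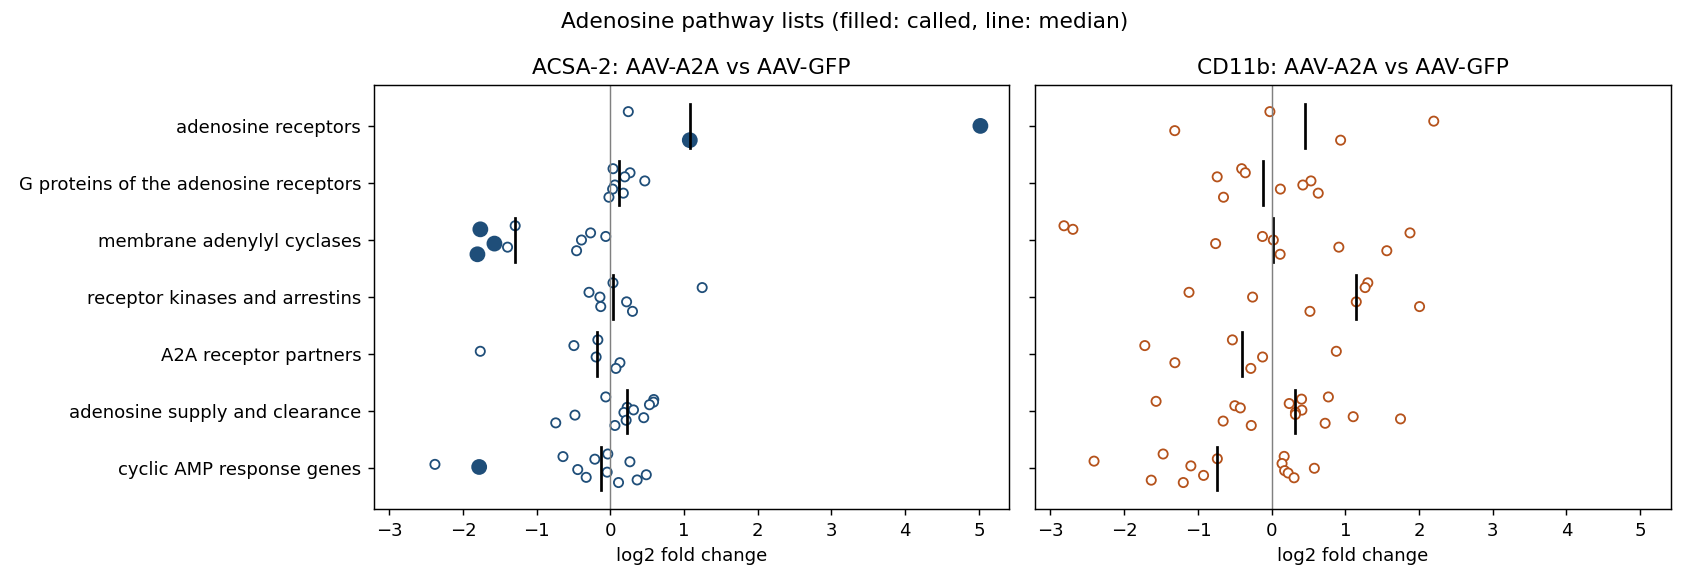
log2 fold change of AAV-A2A against AAV-GFP for each gene of the receptor family and of 6 pathway lists, in ACSA-2 (left) and CD11b (right) cells; filled points were called and the black line is the median of the list. The 9 cyclases all lie below 0 in ACSA-2 cells in this fit, and no point is filled in CD11b cells.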

How the data were processed

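Per the labels, hippocampal cells were sorted on ACSA-2 and CD11b beads and sequenced as SMART-Seq v4 cDNA without molecular identifiers. The authors trimmed single-end reads with cutadapt (version 1.10), aligned them with STAR (version 2.5.3) to mm10, counted unique, unambiguous reads per Ensembl gene with HTSeq (version 0.6.1p1), and deposited raw counts per gene, one table for each fraction. Columns without a name (25, empty) were left out. Depth was 33937067 to 53206974 counts on genes per library, and limits and floors cover counting error only.

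Here each comparison was fitted across all genes in edgeR (4.0.16, R 4.3.3: TMM, filterByExpr, robust quasi-likelihood test) with 3 libraries per group, and p-values were Benjamini-Hochberg adjusted over all genes tested. A call needed an adjusted p under 0.05 and a log2 fold change beyond 0.32 in either direction. Comparisons across fractions used the 25442 genes in both tables. CPM used each library's total on genes, and RPKM the exon bases of GENCODE M21 that no other gene shares. DESeq2 (1.42.0), limma-voom (3.58.1), other scalings, filters and left-out libraries were alternatives, and the scripts were tested on simulated data. Named genes were the 4 receptors, up to 2 called genes with the largest change per list (otherwise the most abundant member), and the 3 genes most like each receptor, of which 1 is not reported here; Adcy6, and Adcy8 and Adcy9 between fractions, were named after their values were seen. The members and lists were chosen with earlier results of these data known. The study's text gives 3 animals per group for the astrocyte libraries and no number of animals for the CD11b libraries. The labels number the libraries and do not link them to animals, so each library is read here as 1 animal.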

Additional observations from a re-analysis of the deposited data

How the results depend on the processing

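No paired analysis was possible because the labels do not link libraries of the groups compared to the same animals. Of 203 refits of the receptors' log2 fold changes, 176 kept direction and side of the threshold; the cause of the others was not tested. Adora2a in ACSA-2 cells passed in all 13 alternatives (4.86 to 5.14). Adora2b there was 1.05 in the 12-library fit and 0.848 to 1.20 without 1 library, none passing. It passed in 6 of the 7 alternatives that left out no library. In CD11b cells Adora1 (-0.526 to 0.536 without 1 library) turned to 0.442 in limma-voom, 0.0202 without a filter, 0.0190 in the 12-library fit and 1.00 with the Ttr term, and Adora2a (1.60 to 2.57) passed in DESeq2 at 2.21. Between control fractions Adora1 (1.78 to 2.83) passed in DESeq2 (2.27), limma-voom (2.67), with at least 10 counts in every library (2.25) and in the 12-library fit (2.27); Adora2a ran from 1.92 to 2.54 and Adora2b from 1.12 to 2.35. For the difference of effects Adora1 (-0.379 to 0.684) was -0.224 in limma-voom, and Adora2a (2.35 to 3.39) passed in DESeq2 and with at least 10 counts (2.82 both). In ACSA-2 cells Cyth2 (-0.0172 to 0.305) and Adk (-0.0561 to 0.372) turned negative without A2A-313, neither passing. Genes called in ACSA-2 cells were 1263 in DESeq2 and 156 in the 12-library fit against 553 (272 to 448 without 1 library), in CD11b cells 455 in DESeq2 against 0, between control fractions 6792 in DESeq2 against 4377 (1927 to 5836), and for the difference 1695 in DESeq2, 10 with RLE factors, 0 with library totals only (3921 at an unadjusted p under 0.05 in edgeR) and 345 with at least 10 counts against 75 (0 to 1286). Library totals alone moved the median of all genes to -0.17 in CD11b cells, from -0.05, to -0.21 between fractions, from -0.09, and to 0.29 for the difference, from 0.10.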

Other observations

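Set against the microglia list, Adora3 of the CD11b fraction varied less than its CPM did. This ratio was chosen after the values were seen and was given no test. Per 1000 CPM of microglia markers, Adora3 stood at 0.549, 0.713 and 0.744 CPM in GFP-2328, GFP-2329 and GFP-2331, and at 0.885, 0.856 and 1.04 CPM in A2A-2343, A2A-2344 and A2A-2347. The groups did not overlap on this scale, whereas they did in CPM. How many other genes would separate on this scale was not computed, and in CPM 23.5% of the genes tested in this fraction did.

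Markers of striatal projection neurons, the best-known source of Adora2a transcripts in the brain, were read in the same libraries. Of 8 markers Gpr6 was not listed. The other 7 summed to 1138, 770 and 14.6 CPM in GFP-2328, GFP-2329 and GFP-2331 and to 7.81, 6.79 and 527 CPM in A2A-2343, A2A-2344 and A2A-2347, with Ppp1r1b the most abundant, and the Ttr-rich libraries were the high ones. In ACSA-2 libraries they summed to 247 to 481 CPM, where the list of neurons summed to 14.9 to 92.9 CPM. Counting Gpr6, 7 of the 8 markers had 0 counts in GFP-2331, 5 in A2A-2343, 4 in A2A-2344 and 2 or 3 in every other library. Drd2 and Tac1 had 0 counts in all 3 CD11b AAV-A2A libraries. Whether such cells were present, and their part in the Adora2a levels, were not tested.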
